A study of Homo sapiens with 11 samples.

Results

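The 40 genes described here are interferon-stimulated genes and RNA sensors, taken by symbol from tables of 58735 genes; all 40 matched 1 Ensembl identifier each. They were read in RNA-seq libraries of AsPC-1 and PANC-1, established human pancreatic cancer lines, as a readout of an innate response to transfected RNA. The groups were AsPC-1 with small interfering RNA (siRNA) against MYEOV (n = 3), AsPC-1 control (n = 2), PANC-1 with MYEOV siRNA (n = 3) and PANC-1 control (n = 3). RNA of transfected cells was taken 48 hours after a lipid transfection whose mixture stayed on the cells for 6 hours. Both lines grew with fetal bovine serum, AsPC-1 in RPMI and PANC-1 in DMEM, so line and medium cannot be told apart. The controls are labelled wild type and as having had no treatment, while the protocol also lists a negative-control siRNA, so whether control cells received siRNA and lipid is not settled. A pair of MYEOV siRNAs is named and no library is tied to either. Separate cultures are not stated, so p-values here cover library-to-library spread only, and that spread may be technical.

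Cells read double-stranded or unusual RNA through receptors that sit in the cytoplasm or in endosomes. RIG-I (DDX58) and MDA5 (IFIH1) signal through MAVS to IRF3 and IRF7, which switch on interferon genes. Secreted interferon binds its receptors and, through the kinases JAK1 and TYK2, activates a complex that holds STAT2 and IRF9. That complex binds the interferon-stimulated response element in promoters of genes such as ISG15, the IFIT genes and the OAS genes. Long double-stranded RNA and some siRNAs are known to trigger this programme, and a set of interferon-stimulated genes also stays on at a low level in many tumour lines.

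Total counts ran from 12113093 to 15066456 per library, 22050 to 24025 genes had a count, and 38 to 40 of the 40 genes did. MYEOV, the siRNA target, is given in CPM (counts over the TMM-scaled library size) and stood at 42.9, 50.7 and 48.1 CPM in AsPC-1 siRNA libraries, against 130.8 and 129.5 in AsPC-1 controls. In PANC-1 it was 37.6, 35.8 and 39.7 CPM with siRNA, against 75.0, 68.5 and 64.3 CPM in controls. The libraries did not overlap in either line, and MYEOV fell by 1.48 and 0.88 on the log2 scale (edgeR adjusted p = 1.95e-16 and 4.19e-06). Of the markers of other cell types, the leukocyte gene CD3E was at 0 in every library, PTPRC was at 0 in all but the PANC-1 controls, which held 3 counts in all, and the 8 leukocyte genes summed to 30.9 to 33.0 CPM in AsPC-1 siRNA, 31.8 to 33.3 in AsPC-1 control, 1.10 to 2.16 in PANC-1 siRNA and 1.45 to 2.34 CPM in PANC-1 control libraries. LYZ alone gave 27.18 to 30.15 CPM of this sum in AsPC-1 siRNA and 29.02 to 29.86 CPM in AsPC-1 control libraries, and was at 0 in PANC-1. All 6 epithelial markers had counts in every group, and their sum was 18430 to 18942 CPM in AsPC-1 siRNA against 18055 to 18248 in AsPC-1 control, and 1929 to 1962 in PANC-1 siRNA against 2262 to 2530 CPM in PANC-1 control libraries. The 6 fibroblast markers summed to 105.7 to 109.2 CPM in AsPC-1 siRNA against 296.1 to 309.8 in AsPC-1 control, and to 46.9 to 48.5 in PANC-1 siRNA against 33.7 to 40.4 CPM in PANC-1 control libraries. The AsPC-1 sum is nearly all LUM, at 103.8 to 106.8 CPM with siRNA against 294.3 to 308.3 CPM in controls (log2 fold change -1.54); the other 5 were too low to test there, with count ratios of 0.92 to 3.38. The part of these markers in the results was not tested. In RNA from whole cultures, fewer cells that express a gene and less RNA per cell cannot be told apart.

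The response element is visible in the promoters of many of these genes. RefSeq promoters (GRCh38.p14, 250 bases before to 50 after each start) were found for 33 of the 40 genes. Its letters GAAA, any 2 bases and GAAA again, read on both strands, occurred in 21 of the 33, against 4.38% of 27305 genes with a promoter. The gamma-activated site TTCNNNGAA occurred in 10 of the 33, against 9.38% of the same genes. The windows below are shown because they belong to genes whose level differed between siRNA and control libraries; capitals mark the 10 bases of the match, and a match that starts with TTTC is the element on the other strand.
ISG15, chr1:1013380-1013409, plus strand: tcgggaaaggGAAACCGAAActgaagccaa
ISG20, chr15:88638937-88638966, plus strand: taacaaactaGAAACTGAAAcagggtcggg
OAS3, chr12:112938321-112938350, plus strand: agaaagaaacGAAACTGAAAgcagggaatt
IFIT3, chr10:89327865-89327894, plus strand: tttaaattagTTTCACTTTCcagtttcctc
IFITM3, chr11:320876-320905, minus strand: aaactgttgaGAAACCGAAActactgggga
TRIM21, chr11:4393666-4393695, minus strand: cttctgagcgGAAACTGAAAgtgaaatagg
DTX3L, chr3:122564322-122564351, plus strand: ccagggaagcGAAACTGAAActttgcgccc
PARP9, chr3:122564322-122564351, minus strand: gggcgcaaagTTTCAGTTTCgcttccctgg
The DTX3L and PARP9 lines are the same 30 bases read on opposite strands, since these genes start head to head. The windows of DDX58, UBE2L6 and SP100 held no match, which says only that these letters are not in those windows. IRF7 and IFITM2 are named without a sequence.

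At the level of the whole set, AsPC-1 and PANC-1 both had a standing expression of these genes, and their summed CPM was slightly lower in siRNA libraries. The sum weighs genes by their level. By gene, 16 were above 0 and 19 below in AsPC-1 (median log2 fold change -0.04), and 12 and 21 in PANC-1 (-0.09). The summed level was 1308, 1336 and 1336 CPM in AsPC-1 siRNA libraries, against 1362 and 1363 CPM in AsPC-1 controls. It was 1202, 1202 and 1221 CPM in PANC-1 siRNA libraries, against 1286, 1257 and 1285 CPM in PANC-1 controls. Every siRNA library was below every control of its line, also when ADAR, EIF2AK2 and IFITM3, the 3 with the highest CPM in PANC-1 controls, were left out of the sum (789, 795 and 814 CPM against 823 and 823 in AsPC-1, and 487, 486 and 501 CPM against 516, 514 and 524 in PANC-1). The heat map of all 40 genes shows how much more the lines differed from each other than siRNA from control.

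**Figure D1:**
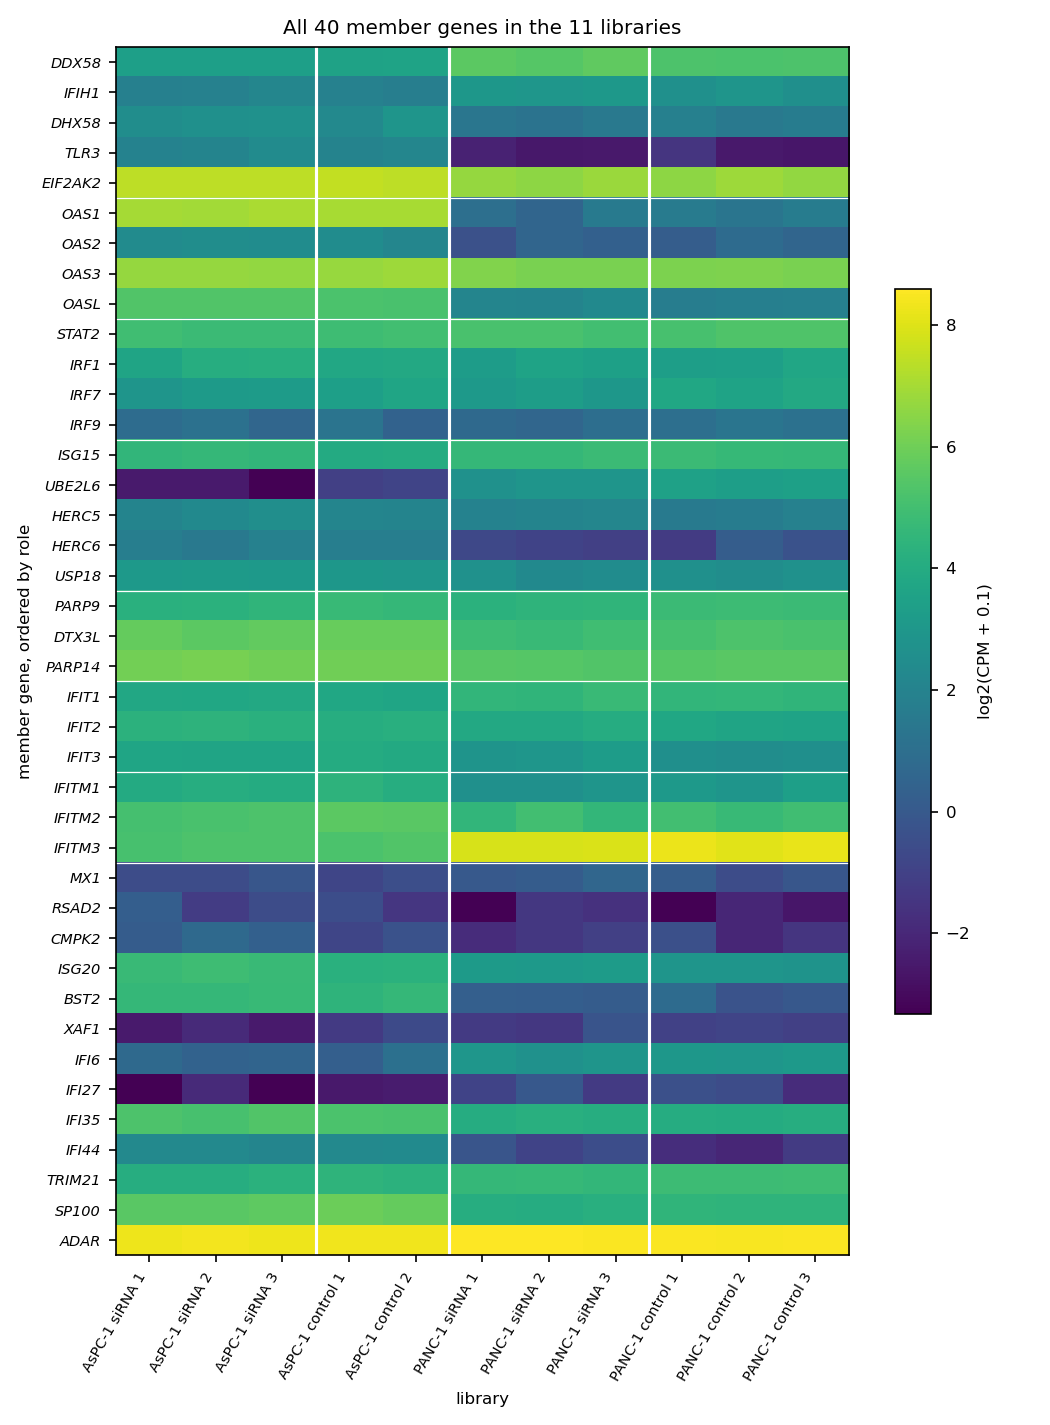
Level of each of the 40 genes (rows, ordered by role) in each of the 11 libraries (columns), as log2(CPM + 0.1). AsPC-1 and PANC-1 columns differ for genes such as OAS1, BST2, TLR3, UBE2L6 and IFITM3, while siRNA and control columns of 1 line look alike.

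Per exon length (TPM, a level scaled to exon length and library size, computed from the counts), ADAR, the editor of double-stranded RNA, led in AsPC-1 with 83.7 ± 3.4 TPM in siRNA and 86.7 ± 3.9 TPM in control libraries (SD, n = 3 and 2). In PANC-1 the antiviral membrane protein IFITM3 led with 665 ± 14 TPM in siRNA and 799 ± 52 TPM in control libraries (SD, n = 3 each). At least 10 TPM was reached by 18 of the 40 genes in AsPC-1 siRNA, 19 in AsPC-1 control, 19 in PANC-1 siRNA and 20 in PANC-1 control libraries. Under 1 TPM were 6 genes in AsPC-1 siRNA and in AsPC-1 control, 8 in PANC-1 siRNA and 9 in PANC-1 control libraries. The antiviral genes RSAD2, XAF1 and IFI27 were so low that the filter on low counts removed them in both lines.

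Few of these genes rose with MYEOV siRNA in AsPC-1. ISG15 and the exonuclease gene ISG20 rose, by 0.57 and 0.55 on the log2 scale, while OAS3, IRF7, PARP9, IFIT3, IFITM2, TRIM21 and SP100 fell by 0.15 to 0.46. Of 35 genes tested, edgeR called 9 at its threshold (adjusted p below 0.05), with 2 up and 7 down. Among all 14304 genes tested in AsPC-1, 32.9% were called, 16.6% higher and 16.3% lower, so the 25.7% of these genes called is not above the background. Their median log2 fold change was -0.04, beside -0.00 over all tested genes, with 16 genes above 0 and 19 below. DESeq2 called 5 of the genes. Not tested, for low counts, were UBE2L6, MX1, RSAD2, XAF1 and IFI27.

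In PANC-1 the RNA sensor DDX58 rose by 0.32 on the log2 scale, and IRF7, UBE2L6, PARP9, DTX3L, IFITM3 and SP100 fell by 0.28 to 0.63. Of 33 genes tested, 7 were called by edgeR, 1 higher and 6 lower. Among all 14929 genes tested in PANC-1, 9.08% were called, 4.16% higher and 4.92% lower, beside 21.2% of these genes. Their median log2 fold change was -0.09, beside -0.00 over all tested genes, with 12 genes above 0 and 21 below. Without PANC-1 siRNA replicate 1 the edgeR count was 4, and DESeq2 called 6. The count over all genes moved as well, from 1356 to between 538 and 1712 when 1 library was left out. Not tested were TLR3, HERC6, RSAD2, CMPK2, XAF1, IFI27 and IFI44.

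Of 31 genes tested in both lines, IRF7, PARP9 and SP100 were called lower in both, and edgeR called 0 higher in both and 0 in opposite directions. At an unadjusted edgeR p under 0.05 2 genes were higher in both, 5 lower in both and 1 opposite, beside 6.94%, 7.52% and 1.34% of all genes tested in both lines. DESeq2 called 0 higher in both, 1 lower in both and 0 opposite. Over all 12893 genes tested in both lines, 3.97% were called lower in both and 2.78% higher in both. No called gene rose more than 2-fold in either line. The 2 comparisons share no library.

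**Figure D2:**
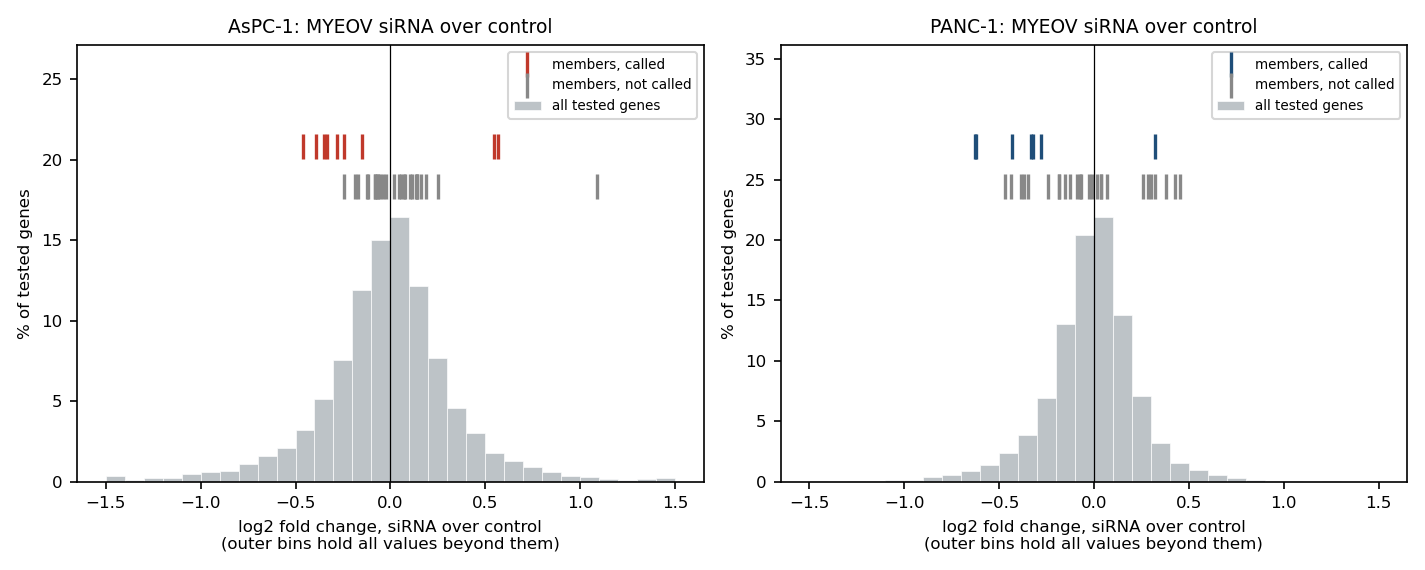
Share of all tested genes (grey bars, in % per 0.1-wide bin) by log2 fold change of siRNA over control in AsPC-1 (left) and PANC-1 (right), with the interferon-stimulated and RNA sensing genes as ticks above (coloured: called by edgeR, upper row; grey: not called). The called ticks of AsPC-1 lie between -0.46 and 0.57 and those of PANC-1 between -0.63 and 0.32, inside the spread of all genes.

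Among the RNA sensors, DDX58 (ENSG00000107201, chromosome 9, 32455705 to 32526324 of the GRCh38 annotation, minus strand) encodes RIG-I, which binds RNA with a 5′ triphosphate. It stood at 47.6, 43.3 and 51.5 CPM in PANC-1 siRNA libraries, against 38.7, 36.7 and 38.4 CPM in PANC-1 controls. In AsPC-1 it was 10.4, 10.4 and 10.7 CPM with siRNA, against 11.5 and 11.9 CPM in controls. All PANC-1 siRNA libraries were above all PANC-1 controls, and all AsPC-1 siRNA libraries below both AsPC-1 controls. The log2 fold change was 0.32 in PANC-1 (SE 0.07, 95% interval 0.16 to 0.48, edgeR adjusted p = 0.0156) and -0.17 in AsPC-1 (SE 0.12, edgeR adjusted p = 0.283). The PANC-1 call was lost without siRNA replicate 1 (adjusted p = 0.0791) and without siRNA replicate 3 (adjusted p = 0.0772).

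The response of DDX58 differed between the lines, AsPC-1 minus PANC-1, by -0.48 log2 units (SE 0.13; adjusted p = 0.042 in edgeR's interaction test). Of the 37 genes tested for such a difference, 3 were called, DDX58 and IFIT3 with a negative and ISG15 with a positive difference. Among all 16680 genes, 4.36% were called, 2.28% with a positive and 2.07% with a negative difference. The DDX58 call held in 6 of 17 alternatives. It was lost without AsPC-1 control replicates 1 or 2, AsPC-1 siRNA replicates 1, 2 or 3, PANC-1 control replicate 3 or PANC-1 siRNA replicates 1 or 3, and its adjusted p over all alternatives ran up to 0.186.

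The other sensors did not pass the test in either line. IFIH1, which encodes MDA5, a sensor of long double-stranded RNA, was at 7.90, 7.62 and 8.15 CPM in PANC-1 siRNA libraries, against 6.25, 7.26 and 5.99 CPM in PANC-1 controls. These libraries did not overlap, but the log2 fold change of 0.28 had an edgeR adjusted p of 0.186 (95% interval 0.02 to 0.55). In AsPC-1 IFIH1 was at 3.51, 3.69 and 4.30 CPM with siRNA and 3.64 and 3.36 CPM in controls, which overlapped (log2 fold change 0.11, edgeR adjusted p = 0.723). DHX58, which encodes LGP2, a regulator of the other helicases, had log2 fold changes of 0.02 in AsPC-1 and -0.35 in PANC-1 (edgeR adjusted p = 0.95 and 0.297).

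EIF2AK2 encodes PKR, the kinase that halts translation on double-stranded RNA, and had the highest CPM of the sensors; per exon length DDX58 was higher in PANC-1 siRNA libraries, at 41.4 ± 3.9 TPM against 36.3 ± 2.8 TPM for EIF2AK2 (SD, n = 3). EIF2AK2 was at 170, 168 and 169 CPM in AsPC-1 siRNA libraries against 183 and 171 CPM in controls, and at 103, 95.8 and 110 CPM in PANC-1 siRNA libraries against 94.6, 117 and 100 CPM in controls. The groups lay close in AsPC-1 (log2 fold change -0.08, edgeR adjusted p = 0.117) and overlapped in PANC-1 (-0.01, edgeR adjusted p = 0.958). The 95% intervals were -0.16 to -0.00 in AsPC-1 and -0.18 to 0.16 in PANC-1. EIF2AK2 overlaps GPATCH11 on the other strand, and whether counting used strand is not stated in the labels. TLR3, the endosomal receptor for double-stranded RNA, had 45, 50 and 63 counts in AsPC-1 siRNA libraries and 51 and 49 in controls (log2 fold change 0.08, edgeR adjusted p = 0.807), and 4 counts over the PANC-1 siRNA libraries against 6 over the PANC-1 controls.

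The OAS genes encode enzymes that, on double-stranded RNA, make a second messenger that leads to RNA decay; OASL lacks that activity. In AsPC-1, OAS3 was at 103, 104 and 100 CPM with siRNA, against 109 and 116 CPM in controls. The groups did not overlap, and OAS3 fell by 0.15 on the log2 scale (SE 0.05, edgeR adjusted p = 0.0126). The call was lost without AsPC-1 control replicate 2 (adjusted p = 0.217), with DESeq2 (0.068) and in 1 fit over all groups (0.101). In PANC-1 OAS3 was at 80.6, 73.3 and 74.3 CPM with siRNA and 74.9, 77.9 and 73.1 CPM in controls, which overlapped (0.02, edgeR adjusted p = 0.91). OAS1, OAS2 and OASL were not called in either line; OASL had log2 fold changes of 0.14 in AsPC-1 and 0.38 in PANC-1 (edgeR adjusted p = 0.117 and 0.171), and OAS1 of -0.06 and -0.47 (edgeR adjusted p = 0.3 and 0.277). AC004551.1 lies opposite OAS1, OAS2 and OAS3.

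Of the transcription factors, IRF7, the interferon regulatory factor that amplifies type I interferon production, was the 1 that changed. It was at 7.44, 8.79 and 9.17 CPM in AsPC-1 siRNA libraries, against 10.5 and 12.7 CPM in AsPC-1 controls. PANC-1 libraries held 8.51, 9.70 and 7.84 CPM with siRNA, against 13.7, 12.1 and 14.4 CPM in controls. Every siRNA library was below every control in both lines. IRF7 fell by 0.63 on the log2 scale in PANC-1 (SE 0.11, 95% interval -0.88 to -0.38, edgeR adjusted p = 0.00394) and by 0.46 in AsPC-1 (SE 0.14, edgeR adjusted p = 0.0099). The AsPC-1 call was lost without AsPC-1 control replicate 2 (adjusted p = 0.195) and with DESeq2 (0.0677), while the PANC-1 call held in 13 of 13 alternatives. The interaction test did not call a difference between the falls (difference 0.18, 95% interval -0.20 to 0.56, edgeR adjusted p = 0.691).

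STAT2, IRF1 and IRF9 were not called. STAT2, a subunit of the interferon-activated complex, had log2 fold changes of -0.08 in AsPC-1 and -0.15 in PANC-1 (edgeR adjusted p = 0.464 and 0.273). IRF9, its DNA-binding partner, was low, at 1.40 to 2.05 CPM in AsPC-1 siRNA against 1.24 to 2.27 in AsPC-1 control libraries, and at 1.44 to 1.90 CPM in PANC-1 siRNA against 1.95 to 2.35 in PANC-1 control libraries. IRF1, a factor induced by interferon gamma, varied within AsPC-1 siRNA, at 12.5, 17.0 and 17.7 CPM, around the controls at 13.9 and 14.3 CPM (log2 fold change 0.14, edgeR adjusted p = 0.418).

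ISG15 is a ubiquitin-like protein that is attached to other proteins by UBE2L6 and HERC5 and removed by USP18. It stood at 23.2, 24.3 and 22.7 CPM in AsPC-1 siRNA libraries, against 15.5 and 15.8 CPM in AsPC-1 controls. In PANC-1 it was at 24.5, 24.6 and 27.5 CPM with siRNA, against 27.8, 25.4 and 24.5 CPM in controls. The AsPC-1 groups were far apart and the PANC-1 groups overlapped. ISG15 rose by 0.57 on the log2 scale in AsPC-1 (SE 0.09, 95% interval 0.38 to 0.76, edgeR adjusted p = 2.77e-05), a call that held in 12 of 12 alternatives. In PANC-1 its log2 fold change was -0.02 (95% interval -0.20 to 0.15, edgeR adjusted p = 0.902).

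The difference in the ISG15 response, AsPC-1 minus PANC-1, was 0.61 (SE 0.12, 95% interval 0.35 to 0.86, edgeR interaction test, adjusted p = 0.00557). It was lost without AsPC-1 control replicate 1 (adjusted p = 0.0522). In CPM, the AsPC-1 level with siRNA came near that of PANC-1, whose controls were higher than those of AsPC-1. In TPM it stayed lower, at 62.9 ± 2.5 in AsPC-1 siRNA libraries. PANC-1 stood at 102.8 ± 7.2 TPM in siRNA and 103.3 ± 6.5 TPM in control libraries (SD, n = 3 each). AsPC-1 siRNA libraries were not tested against PANC-1. AL645608.1 and AL645608.3 lie on the opposite strand at ISG15.

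UBE2L6, the E2 enzyme of ISG15 conjugation, was at 6.43, 7.33 and 7.31 CPM in PANC-1 siRNA libraries, against 11.3, 10.1 and 10.8 CPM in PANC-1 controls, with no overlap. It fell by 0.62 on the log2 scale in PANC-1 (SE 0.11, 95% interval -0.86 to -0.38, edgeR adjusted p = 0.00389), and the call held in 13 of 13 alternatives. AsPC-1 libraries had 1, 1 and 0 counts with siRNA against 5 and 5 in controls, a ratio of 0.135 with an exact counting interval of 0.0144 to 0.634, which covers counting error only. HERC5, HERC6 and USP18 were not called, with log2 fold changes of 0.25, -0.04 and 0.16 in AsPC-1 and, for HERC5 and USP18, 0.32 and -0.13 in PANC-1 (edgeR adjusted p from 0.263 to 0.919); USP18 has close copies, so its count is uncertain.

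PARP9, of the ADP-ribosyltransferase family, and DTX3L, an E3 ubiquitin ligase, form a complex that acts in DNA repair and antiviral signalling. PARP9 (chromosome 3, 122527924 to 122564577, minus strand) was at 18.7, 19.5 and 22.0 CPM in AsPC-1 siRNA libraries, against 26.1 and 24.4 CPM in AsPC-1 controls. PANC-1 libraries held 19.2, 21.4 and 21.8 CPM with siRNA, against 27.4, 28.4 and 28.2 CPM in controls. No siRNA library reached a control of its line. PARP9 fell by 0.43 on the log2 scale in PANC-1 (SE 0.08, edgeR adjusted p = 0.00414) and by 0.35 in AsPC-1 (SE 0.09, edgeR adjusted p = 0.0035). The AsPC-1 call was lost without AsPC-1 control replicate 1 (adjusted p = 0.0712).

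DTX3L was at 28.4, 27.0 and 30.8 CPM in PANC-1 siRNA libraries, against 34.2, 38.1 and 36.3 CPM in PANC-1 controls, with no overlap. It fell by 0.33 on the log2 scale (SE 0.08, edgeR adjusted p = 0.0159). The call was lost without PANC-1 control replicate 3 (adjusted p = 0.0542) or without either of siRNA replicates 1 and 2 (0.0844 and 0.0713). DTX3L also lost its call with the replicate number as a block (adjusted p = 0.0635). In AsPC-1 it was at 54.5, 48.9 and 52.6 CPM with siRNA, against 55.9 and 56.1 CPM in controls (log2 fold change -0.12, edgeR adjusted p = 0.129). PARP9 and DTX3L overlap at their starts on opposite strands, at the shared window printed above, so reads there may count for either. PARP14, an ADP-ribosyltransferase of the same chromosomal region, had log2 fold changes of 0.05 in AsPC-1 and -0.09 in PANC-1 (edgeR adjusted p = 0.582 and 0.469).

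Of the IFIT proteins, IFIT1 binds viral RNA that lacks cap methylation. IFIT3 stood at 12.8, 12.3 and 12.2 CPM in AsPC-1 siRNA libraries, against 16.0 and 15.0 CPM in AsPC-1 controls. PANC-1 libraries held 7.17, 7.55 and 9.59 CPM with siRNA, against 5.99, 5.72 and 5.93 CPM in controls. The groups were apart in both lines, with siRNA lower in AsPC-1 and higher in PANC-1. IFIT3 fell by 0.34 on the log2 scale in AsPC-1 (SE 0.11, edgeR adjusted p = 0.0151), a call lost without AsPC-1 control replicate 1 (adjusted p = 0.13), with DESeq2 (0.119) and in 1 fit over all groups (0.0583). In PANC-1 the log2 fold change was 0.45 (SE 0.14, 95% interval 0.16 to 0.75, edgeR adjusted p = 0.0574), which missed the threshold.

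The IFIT3 difference between lines was -0.77 (SE 0.17, 95% interval -1.13 to -0.42, edgeR interaction test, adjusted p = 0.0103), lost without AsPC-1 control replicate 1 (adjusted p = 0.0744). IFIT2 was at 20.1, 20.8 and 19.0 CPM in AsPC-1 siRNA against 16.8 and 18.0 CPM in AsPC-1 control libraries, and at 14.7, 14.3 and 16.7 CPM in PANC-1 siRNA against 13.7, 12.3 and 12.1 CPM in PANC-1 control libraries. Its groups did not overlap in either line, yet it was not called (log2 fold changes 0.19 and 0.26, edgeR adjusted p = 0.138 and 0.131). IFIT1 had log2 fold changes of 0.07 in each line (edgeR adjusted p = 0.66 in AsPC-1 and 0.705 in PANC-1). LIPA lies opposite all 3 IFIT genes.

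**Figure D3:**
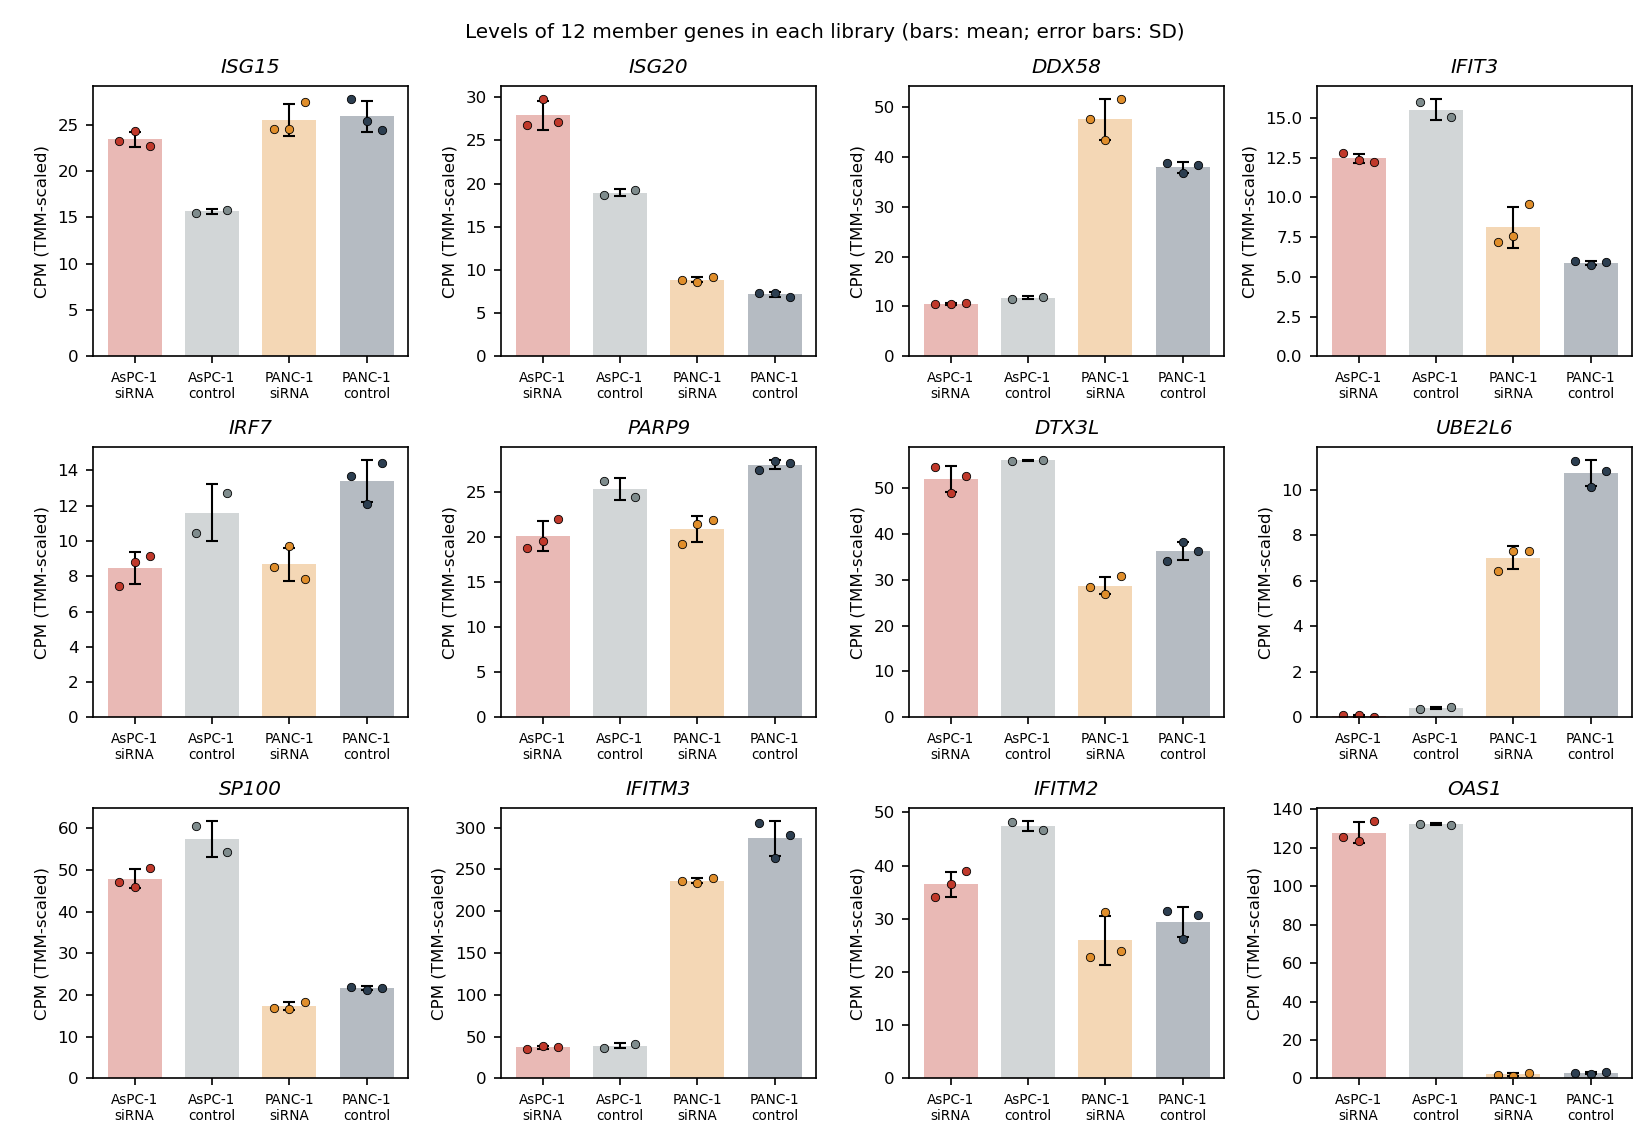
CPM of 12 of the genes in each library (points), with the mean (bar) and SD (error bar) per group: AsPC-1 siRNA (n = 3), AsPC-1 control (n = 2), PANC-1 siRNA and PANC-1 control (n = 3 each). ISG15 differs between siRNA and control in AsPC-1 alone by the test, IRF7, PARP9 and SP100 are lower with siRNA in both lines, and IFIT3 moves in opposite directions, with PANC-1 not past the threshold.

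The IFITM proteins block fusion of viral and cell membranes. In PANC-1, IFITM3 was at 237, 233 and 239 CPM with siRNA, against 306, 264 and 291 CPM in controls, with no overlap. It fell by 0.28 on the log2 scale (SE 0.05, edgeR adjusted p = 0.00626; called in 13 of 13 alternatives). In AsPC-1 it was at 34.9, 38.8 and 37.8 CPM with siRNA and 36.6 and 41.0 CPM in controls, which overlapped (-0.07, edgeR adjusted p = 0.509). IFITM2 was at 34.1, 36.5 and 38.9 CPM in AsPC-1 siRNA libraries, against 48.1 and 46.7 CPM in AsPC-1 controls. It fell by 0.39 on the log2 scale there (SE 0.07, edgeR adjusted p = 6.28e-05; called in 12 of 12 alternatives), and in PANC-1 its groups overlapped (-0.19, edgeR adjusted p = 0.349).

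IFITM1 had log2 fold changes of -0.25 in AsPC-1 and -0.44 in PANC-1 and missed the threshold in both (edgeR adjusted p = 0.0618 and 0.084). The interaction test called no difference between lines for any IFITM gene (differences 0.21, -0.19 and 0.22 for IFITM1, IFITM2 and IFITM3, edgeR adjusted p = 0.63, 0.562 and 0.221). The IFITM genes are close copies of each other and IFITM1 overlaps IFITM2 on the same strand, so the split of reads among them is uncertain.

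ISG20, an RNA exonuclease, was at 26.7, 29.8 and 27.2 CPM in AsPC-1 siRNA libraries, against 18.6 and 19.2 CPM in AsPC-1 controls. In PANC-1 it was at 8.88, 8.55 and 9.13 CPM with siRNA, against 7.36, 7.33 and 6.88 CPM in controls. The siRNA libraries were above the controls in both lines. ISG20 rose by 0.55 on the log2 scale in AsPC-1 (SE 0.09, edgeR adjusted p = 2.12e-05; called in 12 of 12 alternatives). In PANC-1 the log2 fold change was 0.30 (95% interval 0.06 to 0.54) and did not pass (edgeR adjusted p = 0.116). The difference between lines was 0.26 (95% interval -0.03 to 0.55, edgeR adjusted p = 0.361).

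SP100, a core protein of PML nuclear bodies that restrains viral genomes, was at 47.1, 46.1 and 50.5 CPM in AsPC-1 siRNA libraries, against 60.6 and 54.4 CPM in AsPC-1 controls. In PANC-1 it was at 17.0, 16.6 and 18.4 CPM with siRNA, against 22.0, 21.1 and 21.7 CPM in controls. Both lines showed siRNA below control without overlap. SP100 fell by 0.28 on the log2 scale in AsPC-1 (SE 0.06, edgeR adjusted p = 0.00102; lost without AsPC-1 control replicate 1, adjusted p = 0.0795) and by 0.32 in PANC-1 (SE 0.08, edgeR adjusted p = 0.0273). The PANC-1 call was lost without control replicates 1 or 3 (adjusted p = 0.0752 and 0.0768), without siRNA replicates 1 or 2 (0.124 and 0.10), and with DESeq2 (0.0639). AC010149.1 lies opposite SP100.

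TRIM21, a cytosolic antibody receptor and ubiquitin ligase, was at 16.9, 17.3 and 19.3 CPM in AsPC-1 siRNA libraries, against 21.5 and 20.4 CPM in controls, and at 24.7, 25.2 and 23.5 CPM in PANC-1 siRNA libraries, against 28.6, 28.5 and 29.6 CPM in controls. Its log2 fold changes were nearly the same, -0.25 in AsPC-1 (edgeR adjusted p = 0.0467) and -0.24 in PANC-1 (edgeR adjusted p = 0.0564), on either side of the threshold. The difference between lines was 0.01 (95% interval -0.23 to 0.25). The AsPC-1 call was lost without control replicates 1 or 2 (adjusted p = 0.246 and 0.0994) and without siRNA replicates 1 or 2 (0.136 and 0.123). It was also lost without a filter (0.0902), with DESeq2 (0.206) and in 1 fit over all groups (0.0762), and held in 5 of 12 alternatives.

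The remaining effectors did not pass. ADAR was at 314, 334 and 315 CPM in AsPC-1 siRNA against 319 and 327 CPM in control libraries, and at 375, 387 and 370 CPM in PANC-1 siRNA against 371, 362 and 369 CPM in control libraries (log2 fold changes -0.02 and 0.04, 95% intervals -0.10 to 0.05 and -0.05 to 0.13). CMPK2, a nucleotide kinase gene next to RSAD2, had 12, 19 and 14 counts in AsPC-1 siRNA libraries against 6 and 8 in controls (log2 fold change 1.09, 95% interval 0.19 to 1.99, edgeR adjusted p = 0.0586). IFI44, untested in PANC-1, had 13, 6 and 8 counts there with siRNA against 3, 2 and 5 in controls, a ratio of 2.79 with an exact counting interval of 1.31 to 6.46. XAF1 had 4 counts over the AsPC-1 siRNA libraries against 10 over the AsPC-1 controls (ratio 0.270, exact counting interval 0.0619 to 0.937), and 19 against 18 in PANC-1. MX1, a GTPase that traps viral nucleocapsids, had 24 counts over the AsPC-1 siRNA libraries against 13 over the fewer controls. Scaled for depth this is a ratio of 1.25 (exact counting interval 0.610 to 2.67). In PANC-1, MX1 had 15, 14 and 19 counts in siRNA libraries against 16, 8 and 13 in controls. BST2, IFI6 and IFI35 had log2 fold changes of 0.10, -0.19 and 0.06 in AsPC-1 and -0.07, -0.19 and 0.04 in PANC-1, none called. Over the alternatives IFI6 in AsPC-1 ran from -0.58 to 0.27 and BST2 in PANC-1 from -0.27 to 0.38, so neither has a settled direction. RSAD2, the antiviral viperin, had 24 counts over AsPC-1 siRNA against 11 over AsPC-1 control libraries (ratio 1.47, exact counting interval 0.695 to 3.33). In PANC-1 it had 7 over siRNA against 3 over control libraries (ratio 2.41, interval 0.551 to 14.5). IFI27 had 2 against 2 in AsPC-1 (ratio 0.676, interval 0.0490 to 9.32) and 23 against 21 in PANC-1 (ratio 1.13, interval 0.599 to 2.15). RSAD2 and CMPK2 overlap on opposite strands. These low counts leave wide intervals, so a change of moderate size was not detectable at this depth.

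**Figure D4:**
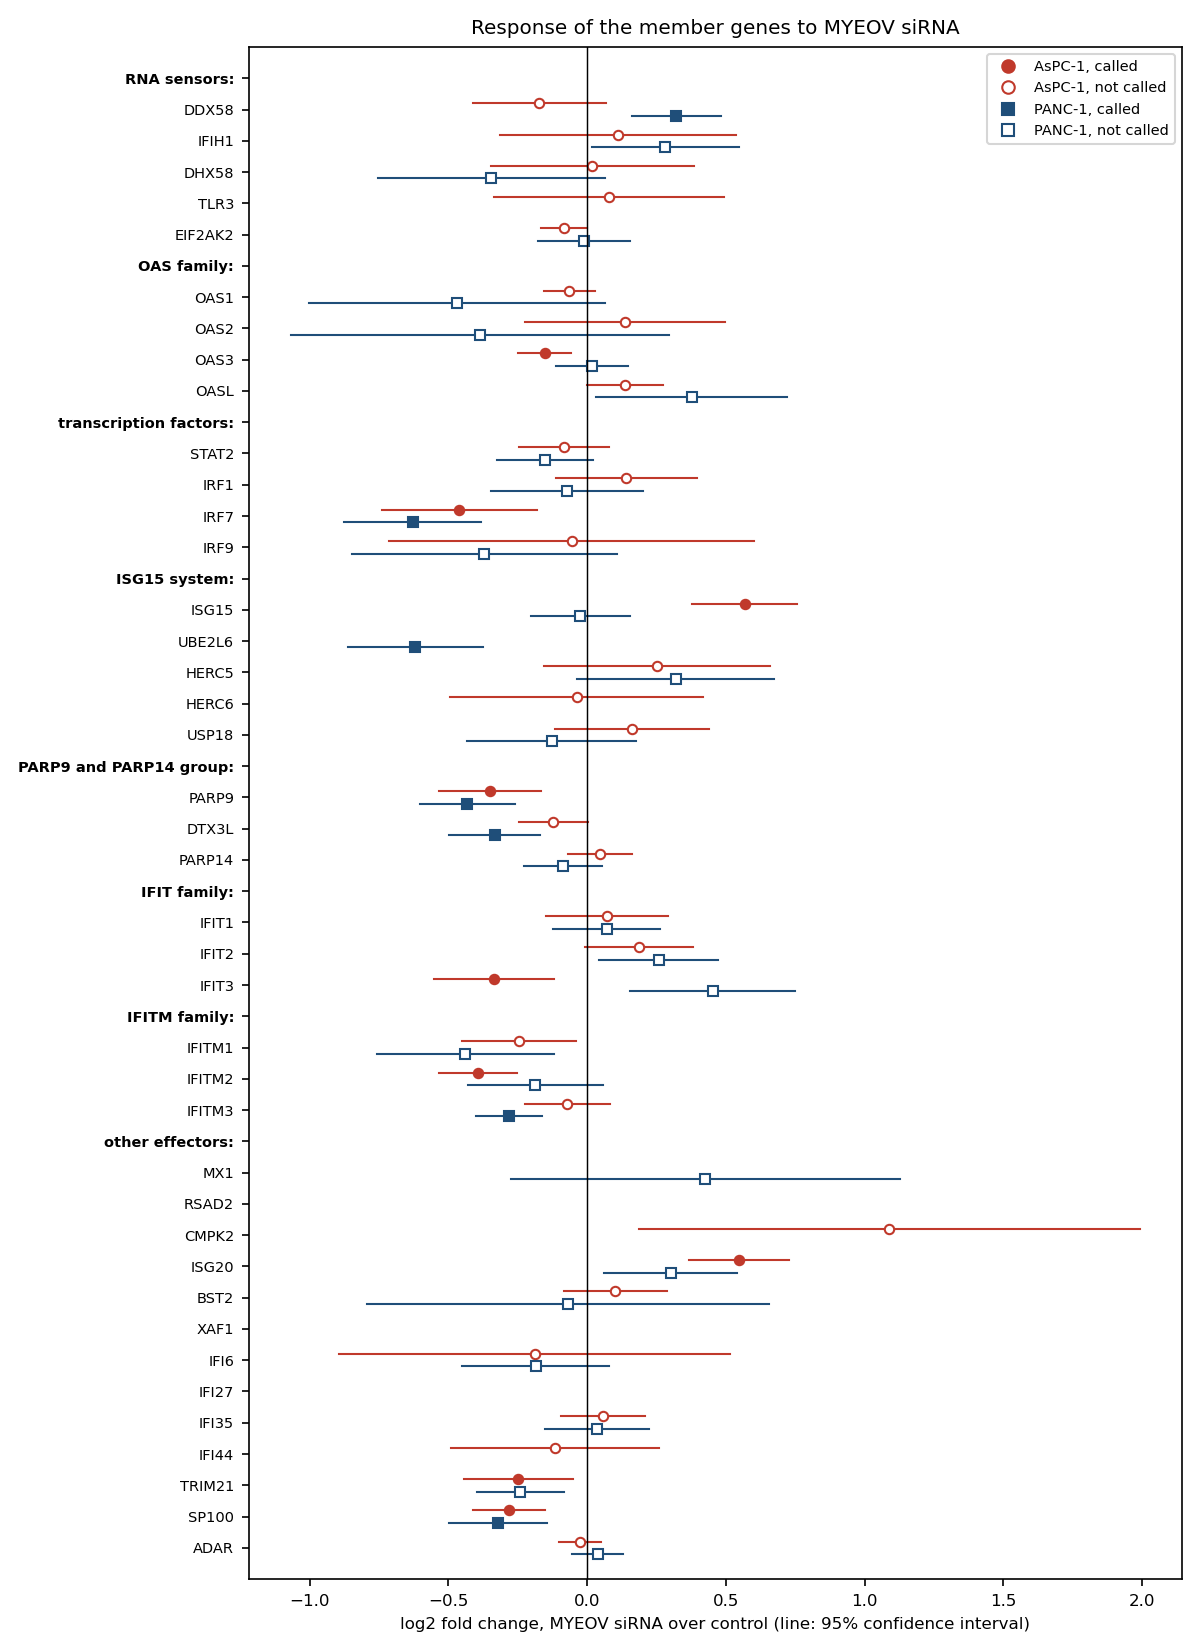
Log2 fold change of siRNA over control (x axis) with its 95% confidence interval for each tested gene, in AsPC-1 (circles) and PANC-1 (squares), ordered by role; filled symbols passed the edgeR threshold. IRF7, PARP9 and SP100 are filled on the negative side in both lines; ISG15 and ISG20 in AsPC-1 and DDX58 in PANC-1 are filled on the positive side.

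Interferon ligands were nearly absent from all libraries. Of 21 ligand genes, 14 had 0 counts in all 11 libraries, IFNB1 and IFNG among them. Averaged over all libraries, this allows a level of up to 0.0201 CPM (3 counts, counting error only). Within a group it allows up to 0.0828 CPM in AsPC-1 siRNA and 0.122 CPM in AsPC-1 control libraries. The PANC-1 limits are 0.0692 CPM with siRNA and 0.0669 CPM in controls. IFNE, the epithelial type I interferon, was the 1 ligand with counts in AsPC-1. It had 48 counts over siRNA and 28 over the fewer control libraries there (log2 fold change 0.19, not called). In PANC-1 it had 13 over siRNA and 7 over control libraries (ratio 1.92, exact counting interval 0.712 to 5.68). MIR31HG overlaps IFNE on the same strand, so reads of that transcript may count for IFNE. IFNL1, a type III interferon, had 9, 3 and 7 counts in PANC-1 siRNA libraries against 3, 1 and 6 in PANC-1 controls (ratio 1.96, exact counting interval 0.869 to 4.73) and 0 in AsPC-1.

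Upstream genes of the pathway were called in both directions. Of 9 receptor and kinase genes tested in AsPC-1, 2 rose and 2 fell (44.4%, beside 32.9% of all genes): the receptor subunit IFNAR1 rose by 0.51 and JAK1 by 0.37 on the log2 scale, while TYK2 fell by 0.46 and IFNGR1 by 0.15 (edgeR adjusted p from 7.83e-08 to 0.0111). In PANC-1 TYK2 alone of 8 was called (12.5%, beside 9.08% of all genes), lower by 0.29 (log2 fold change -0.29, edgeR adjusted p = 0.0143; lost without siRNA replicate 1, adjusted p = 0.106, or siRNA replicate 3, 0.0656). Of 15 sensing adaptors and kinases tested, 5 rose and 3 fell in AsPC-1 (53.3%), and 1 rose and 1 fell in PANC-1 (13.3%). PRKRA, which encodes the PKR activator PACT, fell by 0.85 in AsPC-1 and by 0.34 in PANC-1 (edgeR adjusted p = 5.47e-10 and 0.00794; the PANC-1 call was lost without siRNA replicate 1, adjusted p = 0.0583). UNC93B1, the chaperone of endosomal Toll-like receptors, had log2 fold changes of 0.64 and 0.38 (edgeR adjusted p = 2.55e-13 and 0.0118; the PANC-1 call was lost without siRNA replicate 1, adjusted p = 0.0592).

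The adaptor MAVS rose by 0.15 on the log2 scale in AsPC-1 and IRF3 by 0.26 (edgeR adjusted p = 0.00549 and 0.000461); MAVS lost its call without AsPC-1 control replicate 1 (adjusted p = 0.131). Of the negative regulators, IRF2, a repressor of interferon-stimulated promoters, fell by 0.74 in AsPC-1 and by 0.45 in PANC-1 (edgeR adjusted p = 1.86e-06 and 0.00755). SOCS1, an inhibitor of JAK kinases, averaged 4.70 ± 0.79 CPM in PANC-1 siRNA and 2.58 ± 0.54 CPM in PANC-1 control libraries (SD, n = 3 each; log2 fold change 0.86, edgeR adjusted p = 0.0157), and without siRNA replicate 1 it was not called (adjusted p = 0.104). RNF125, a ubiquitin ligase of RIG-I, rose by 0.58 in AsPC-1 (edgeR adjusted p = 0.000158).

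A further list of 30 interferon-stimulated genes had shares of calls near those of all genes. Among its 25 tested genes, 3 were called up and 6 down in AsPC-1 (36.0%, beside 32.9% of all genes; median log2 fold change 0.01); EPSTI1 fell by 1.21, the ADP-ribosyltransferase gene PARP12 by 0.71 and the helicase gene HELZ2 by 0.45 (edgeR adjusted p = 6.46e-06, 0.000115 and 4.67e-07). In PANC-1, 1 of 22 rose and 1 fell (9.09%, beside 9.08% of all genes), with a median of -0.09; ZNFX1, a helicase that senses double-stranded RNA, rose by 0.36 and NMI, an interferon-induced protein, fell by 0.56 (edgeR adjusted p = 0.000845 and 0.0016).

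The control libraries of the lines differed strongly. Of 36 genes tested between AsPC-1 control and PANC-1 control, 31 were called by edgeR, 21 higher and 10 lower in AsPC-1, beside 76.4% of all 16182 genes tested, 36.1% higher and 40.3% lower. The median log2 fold change, AsPC-1 over PANC-1, was 0.48 over these genes and -0.06 over all genes. Over the further list of 30 interferon-stimulated genes, 22 of 26 tested were higher and 4 lower in AsPC-1. IRF7, IRF9, HERC5, PARP9 and MX1 were not called, and RSAD2, CMPK2, XAF1 and IFI27 were not tested.

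OAS1, OASL and BST2 were far higher in AsPC-1. OAS1 was at 133 and 132 CPM in AsPC-1 controls, against 2.99, 2.42 and 3.09 CPM in PANC-1 controls (log2 fold change 5.55, SE 0.10, edgeR adjusted p = 4.31e-16). BST2, or tetherin, which holds budding virus at the cell surface, was at 21.1 and 24.8 CPM in AsPC-1 controls, against 1.69, 0.733 and 0.883 CPM in PANC-1 controls (4.37, SE 0.21). OASL was at 37.3 and 35.8 CPM against 3.26, 3.45 and 3.53 CPM (3.44, SE 0.12). Each of these AsPC-1 libraries exceeded every PANC-1 library several-fold. All 4 OAS genes were called higher, with OAS2 at 1.88 and OAS3 at 0.60 on the log2 scale; per exon length OAS3 averaged 35.5 ± 2.4 TPM in AsPC-1 controls and 34.2 ± 1.4 TPM in PANC-1 controls (SD, n = 2 and 3).

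TLR3 had 51 and 49 counts in AsPC-1 controls, against 4, 1 and 1 in PANC-1 controls (log2 fold change 4.87, SE 0.41), IFI44 64 and 57 against 3, 2 and 5 counts (4.44, SE 0.33), and HERC6 3.33 and 3.27 against 0.326, 1.03 and 0.694 CPM (2.31, SE 0.34). For all 3 genes the edgeR adjusted p was at most 2.02e-05, and libraries of the lines did not overlap.

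Other genes were higher in PANC-1. UBE2L6 had 5 and 5 counts in AsPC-1 controls, against 173, 138 and 172 in PANC-1 controls (log2 fold change -4.67, SE 0.26, edgeR adjusted p = 1.95e-10). IFITM3 was at 36.6 and 41.0 CPM in AsPC-1 controls, against 306, 264 and 291 CPM in PANC-1 controls (-2.87, SE 0.08), and IFI6, a mitochondrial survival protein, at 1.14 and 2.04 against 7.88, 7.63 and 8.64 CPM (-2.34, SE 0.23). No AsPC-1 control overlapped the PANC-1 controls for these genes. ISG15 was at 15.5 and 15.8 CPM in AsPC-1 controls, against 27.8, 25.4 and 24.5 CPM in PANC-1 controls (-0.70, SE 0.10, edgeR adjusted p = 1.73e-05).

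The sensors split between the lines. DDX58 was lower in AsPC-1 controls, at 11.5 and 11.9 CPM, against 38.7, 36.7 and 38.4 CPM in PANC-1 controls (log2 fold change -1.67, SE 0.10), and so was IFIH1 (-0.86, SE 0.18), while TLR3, DHX58 (0.95, SE 0.22) and EIF2AK2 (0.80, SE 0.08) were higher in AsPC-1. IFIT1 was lower (-0.77) and IFIT2 (0.47) and IFIT3 (1.42) higher in AsPC-1, so members of 1 family did not share a direction. In TPM IFIT2 was slightly lower in AsPC-1 controls, while IFIT1 stayed lower and IFIT3 higher. The smallest called differences depended on single libraries, and some also on the settings. STAT2 (-0.31, edgeR adjusted p = 0.00633) was lost without AsPC-1 control replicate 1 (0.0857), and ADAR (-0.16, edgeR adjusted p = 0.0107) without AsPC-1 control replicate 1 (0.132) or 2 (0.0671). IRF1 (0.34, edgeR adjusted p = 0.0296) was lost without AsPC-1 control replicates 1 or 2 or PANC-1 control replicates 1 or 2 (0.0568 to 0.116), and USP18 (0.36, edgeR adjusted p = 0.0426) without any 1 of the 5 controls (0.0512 to 0.163).

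**Figure D5:**
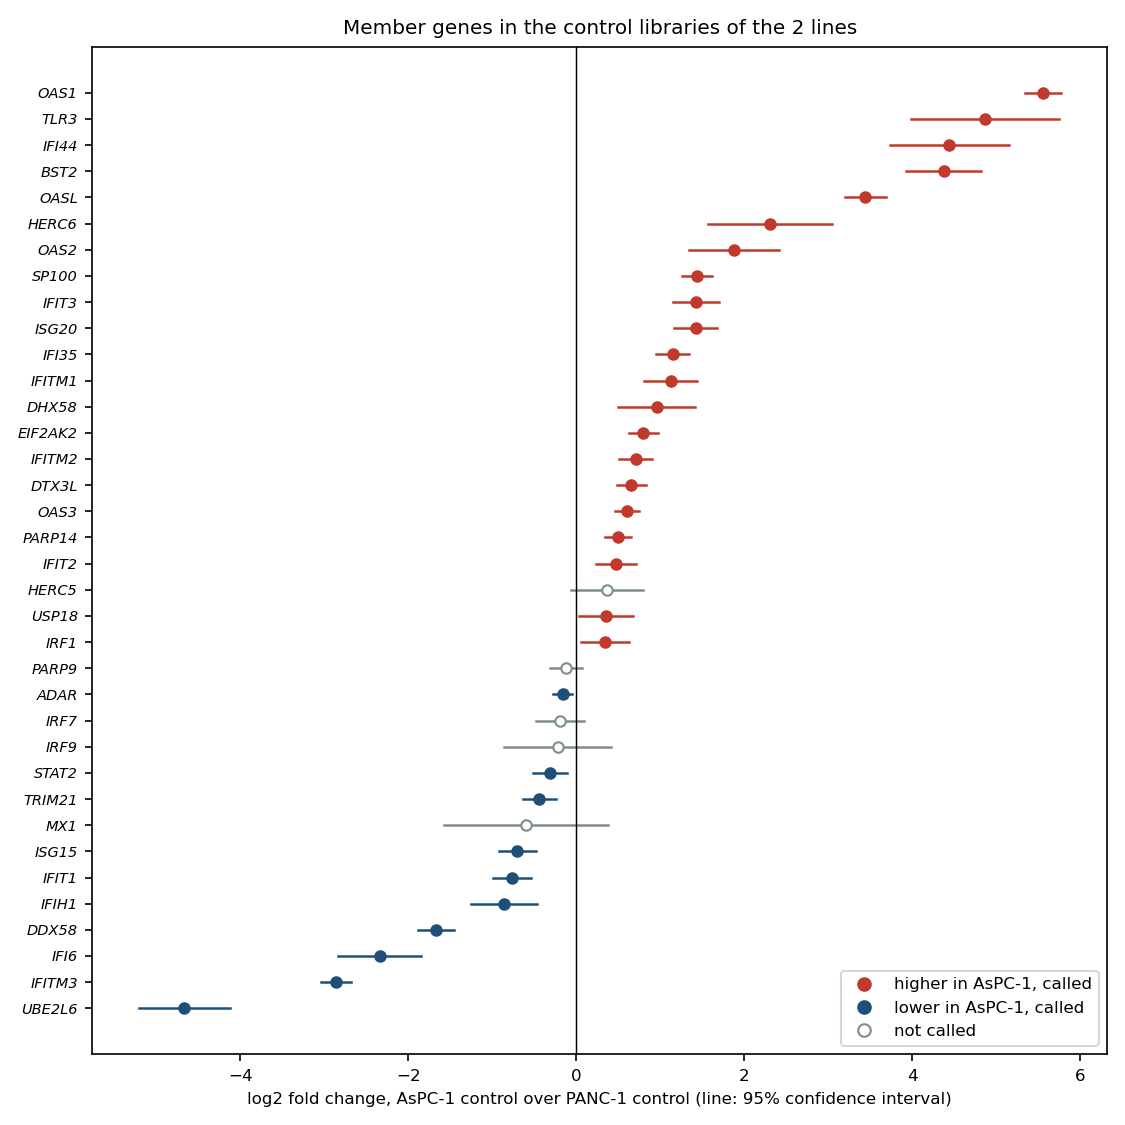
Log2 fold change of AsPC-1 control (n = 2) over PANC-1 control (n = 3) with its 95% confidence interval for the 36 tested genes, sorted by size; red is higher and blue lower in AsPC-1, and open grey symbols were not called by edgeR. OAS1 at 5.55 and UBE2L6 at -4.67 mark the ends of the range.

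Regulators of the pathway differed in the same control libraries. SOCS3, an inhibitor of cytokine signalling, averaged 3.39 ± 0.83 CPM in AsPC-1 controls and 51.0 ± 1.0 CPM in PANC-1 controls (SD, n = 2 and 3; log2 fold change -3.90), and SOCS1 had 4 counts in all in AsPC-1 controls against 117 in PANC-1 controls. IFNLR1, the receptor subunit for type III interferons, averaged 9.96 ± 1.6 CPM in AsPC-1 controls and 2.18 ± 0.88 CPM in PANC-1 controls (log2 fold change 2.18), and UNC93B1 235 ± 0.41 and 34.7 ± 4.0 CPM (2.78). MX2, a relative of MX1, had 0 counts in AsPC-1 controls against 461 in PANC-1 controls, whereas EPSTI1 had 200 against 2 and GBP1 125 against 6.

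An earlier look at these data found the word CTCATGT enriched in the 3′ untranslated regions (UTRs) of genes that fell with siRNA, so its presence is given as a description. It occurred in an annotated 3′ UTR of 16.4% of tested genes with such a region in each line, and in 31.0% of those called lower in AsPC-1 and 51.2% in PANC-1. Of the 40 genes, DDX58, UBE2L6, PARP9, PARP14, IFIT3, XAF1, SP100 and ADAR carried it. Of all tested carriers, 33.5% were called lower in AsPC-1 and 17.1% in PANC-1, and 13.2% and 3.45% were called higher. Among these genes in AsPC-1, 3 of 6 tested carriers were called lower, PARP9, IFIT3 and SP100, and 0 higher. In PANC-1, 3 of 7 were called lower, UBE2L6, PARP9 and SP100, and 1 was called higher, DDX58. IRF7, IFITM2, IFITM3, OAS3, TRIM21 and DTX3L, which also fell in 1 or both lines, did not carry it.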

How the data were processed

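Poly(A) RNA was sequenced as paired reads of 150 bases, per the labels' protocols; the submitters' processing notes name HISAT2, HTSeq and build hg19, without versions. What the authors deposited is 1 table per library of raw gene counts, whole numbers without normalization. All 58735 identifiers occur in GENCODE 29 (GRCh38), which gave names and positions. No label states a strand setting. No entry lacked a gene.

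Each comparison was fitted over all genes with the quasi-likelihood test of edgeR 4.0.16 under R 4.3.3 (two-sided; low genes removed by filterByExpr; TMM scaling; Benjamini-Hochberg adjustment; threshold 0.05), on its own libraries; the difference between lines used all 4 groups. Standard errors are the absolute log2 fold change over the square root of F. CPM and TPM were computed from the deposited counts, CPM with TMM factors over all libraries. Low genes have exact binomial intervals of a ratio, and zero counts a floor of 3 counts (counting error only). No replicate pair agreed within Poisson noise, so none was merged. The chi-square per degree of freedom of that check was 1.62 to 1.96 in AsPC-1 and 2.09 to 5.47 in PANC-1. Pooled over so many genes, a small excess fails the check, so it does not show separate cultures. Fits were tested on simulated counts.

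The 40 genes and the other lists were chosen with earlier results of these data known. Named genes were those called with siRNA or in the difference, the 6 largest called baseline differences each way, the sensors, the untested genes, and up to 3 called genes per other list with JAK1, TYK2, MAVS and IRF3; the remaining genes were named to account for every gene, with their values already seen. Some genes the rule names are not reported here. Other settings tried were scaling by RLE or by upper quartile, no filter, a 5 CPM filter, DESeq2 1.42.0, 1 fit over all groups, replicate number as a block, and leaving out each library. Summaries and figures used Python 3.11.15, pandas 2.3.3, numpy 2.4.6, scipy 1.17.1 and matplotlib 3.10.9.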

Additional observations from a re-analysis of the deposited data

Results flagged for a closer look

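For 3 genes the response to MYEOV siRNA differed between AsPC-1 and PANC-1 by the edgeR interaction test. DDX58 (RIG-I) had a difference, AsPC-1 minus PANC-1, of -0.48 on the log2 scale, IFIT3 of -0.77 and ISG15 of 0.61. ISG15 rose in AsPC-1 and overlapped in PANC-1, DDX58 rose in PANC-1 and did not pass in AsPC-1, and IFIT3 fell in AsPC-1 and was higher in PANC-1 without passing there. Without AsPC-1 control replicate 1 none of the 3 was called (edgeR adjusted p = 0.147 for DDX58, 0.0744 for IFIT3 and 0.0522 for ISG15). Groups of 2 or 3 libraries are too small to look for single outlying samples.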

How the results depend on the processing

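ISG15, ISG20 and IFITM2 in AsPC-1 and IRF7, UBE2L6, PARP9 and IFITM3 in PANC-1 kept their call and direction in every alternative run. In AsPC-1, 9 of the genes were called, DESeq2 called 5, and leaving out 1 library gave 5 to 9. Of all genes, 3164 to 4393 were called without 1 library, beside 4709 with all libraries. The median of the interferon-stimulated and RNA sensing genes, -0.04, was -0.069 with the 5 CPM filter and -0.042 to 0.017 without 1 library. In PANC-1, 7 of them were called, 1 fit over all groups called 11, and leaving out 1 library gave 4 to 8, and 538 to 1712 of all genes. The counts over all genes with DESeq2 and in 1 fit are not given here, so those counts have no background beside them. The PANC-1 median was -0.074 with upper-quartile scaling, -0.13 in 1 fit and -0.12 to -0.079 without 1 library. The baseline median was 0.50 with RLE, 0.40 with upper-quartile scaling, 0.47 without a filter, 0.40 at 5 CPM, 0.50 with DESeq2 and 0.41 to 0.52 without 1 library. For the difference between lines the median was 0.070 with RLE, 0.059 with upper-quartile scaling, 0.053 without a filter, 0.063 at 5 CPM, 0.070 with DESeq2 and 0.038 to 0.11 without 1 library. Leaving out 1 library left 0 to 3 genes called there, and 305 to 1056 of all genes. With all libraries edgeR called 3 of 37 genes, beside 727 of all 16680 genes, and DESeq2 called 2. An unadjusted edgeR p under 0.05 was reached by 7 of the 37, beside 2813 of all 16680 genes. The causes were not tested.

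Deviations from the group mean of same-numbered siRNA and control libraries correlated at -0.017, -0.41 and -0.11 in PANC-1 and at -0.032 and -0.0090 in AsPC-1. Different-numbered PANC-1 pairs ran from -0.37 to 0.37, the highest for siRNA 3 with control 2 and siRNA 2 with control 1. Deviations within a group offset each other, and those of the 2 AsPC-1 controls are mirror images. The check therefore cannot settle whether libraries were paired. With the replicate number as a block, edgeR called 628 of all genes in PANC-1, and 241 of all genes and 0 of the 37 genes tested here in the difference, whose median was 0.037.

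Uncalled values changed sign under some alternative for 9 of 35 genes in AsPC-1, 7 of 33 in PANC-1, 12 of 37 in the difference and 1 of 36 at baseline; none of these was called in any alternative. With the block, DHX58 was -0.029, TLR3 -0.076 and IRF9 0.094 in AsPC-1. Without 1 library, AsPC-1 values ran from -0.27 to 0.33 for DHX58, -0.069 to 0.18 for TLR3, -0.16 to 0.017 for IFITM3, -0.053 to 0.00087 for ADAR, -0.022 to 0.22 for BST2, -0.14 to 0.081 for HERC6, -0.58 to 0.27 for IFI6, -0.39 to 0.46 for IRF9 and -0.011 to 0.32 for OAS2. In PANC-1 EIF2AK2 was 0.0030 with upper-quartile scaling. Without 1 library, PANC-1 values ran from -0.073 to 0.080 for EIF2AK2, -0.049 to 0.0073 for IRF3, -0.079 to 0.030 for ISG15, -0.030 to 0.044 for OAS3, -0.27 to 0.38 for BST2, -0.0020 to 0.068 for IFI35, -0.022 to 0.12 for IFIT1 and -0.16 to 0.055 for IRF1. IRF9 ran from -0.75 to 0.13 at baseline. The TRIM21 difference was -0.0046 with RLE, -0.015 with upper-quartile scaling, -0.0044 with DESeq2, -0.052 with the block and -0.053 to 0.050 without 1 library. Low counts limit the untested genes and the ligands most.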
